A study of Mus musculus with 2 samples.

Results

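The nuclei described here were ranked as pericyte nuclei of the fetal mouse testis, cells that wrap the small vessels of the interstitium. They were the 60 barcodes with the highest share of RNA in 8 genes, *Rgs5*, *Abcc9*, *Kcnj8*, *Lgi1*, *Ndst3*, *Dgkb*, *Steap4* and *Map3k7cl*, out of 7492 barcodes that passed the filters, or 0.801% of them. The filters asked for 2000 to 50000 UMIs (unique molecular identifiers, each standing for 1 captured RNA molecule), a mitochondrial share under 10% and more than 500 transposase cuts at called peaks. The RNA of these 8 genes chose the members, and every other gene was read in the same nuclei, so all RNA values below are descriptions without a test. The other 7432 kept barcodes served as the comparison. Not every member need be a pericyte, since 14 held 2 or fewer of the 8 genes and 10 held RNA of another cell type, as given below.

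The study profiled whole testes at embryonic day E14.5 to follow how fetal Leydig cells arise from interstitial cells. The testes came from *Nr5a1-cre; Rosa-tdTomato* embryos, in which Cre under the *Nr5a1* promoter switches on a red reporter. They were frozen before nuclei were isolated, and RNA and open chromatin were read from the same nuclei. There was 1 RNA library and 1 ATAC library, with no second condition, and how many embryos were pooled is not stated in the labels or methods read here. The values therefore carry counting error only. All intervals below are exact 95% intervals that cover this error and not the variation between animals. Those of levels and ratios pool the counts of a group, so they also leave out the variation between nuclei. Those of windows near the end count fragment ends and are an exception, as given there.

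Pericytes are contractile support cells that share the basement membrane of capillaries with the endothelium. Endothelial cells recruit them with platelet-derived growth factor B, which acts on the receptor PDGFRB, and Notch signals from the endothelium act on NOTCH3. In adult tissues pericytes and smooth muscle cells set vessel tone through potassium channels, calcium entry and cyclic GMP. In the testis, vascular mural cells lie in the interstitium beside the progenitors of the Leydig cells.

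The library held 9833 barcodes, of which 76.2% were kept. The members held 625457 UMIs in all, from 2947 to 40579 per nucleus with a median of 7862.5, against a median of 8253.5 in the other barcodes. They held a median of 5170.5 ATAC fragments against 4599.5, and 32.7% of their fragments fell at peaks against 37.4%. The median mitochondrial share was 1.07% in the members and 1.54% in the others. Depth was thus similar, while the share of fragments at peaks was lower in the members.

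The share of UMIs in the 8 rule genes fell without a gap at the limit. The first member had 1.68% (112 UMIs), the 60th had 0.135% (9 UMIs), and the barcodes at ranks 61 and 62 had 0.127% and 0.124%. The rule genes gave 2005 UMIs in the members, and *Dgkb*, which encodes the diacylglycerol kinase beta that removes a lipid second messenger, gave 52.8% of these counts. *Abcc9* gave 17.1% and *Ndst3* 13.2%, while *Rgs5* gave 3.89% and *Steap4* 0.449%. *Dgkb* thus gave most of the counts, while 8 members held none of it.

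**Figure D1:**
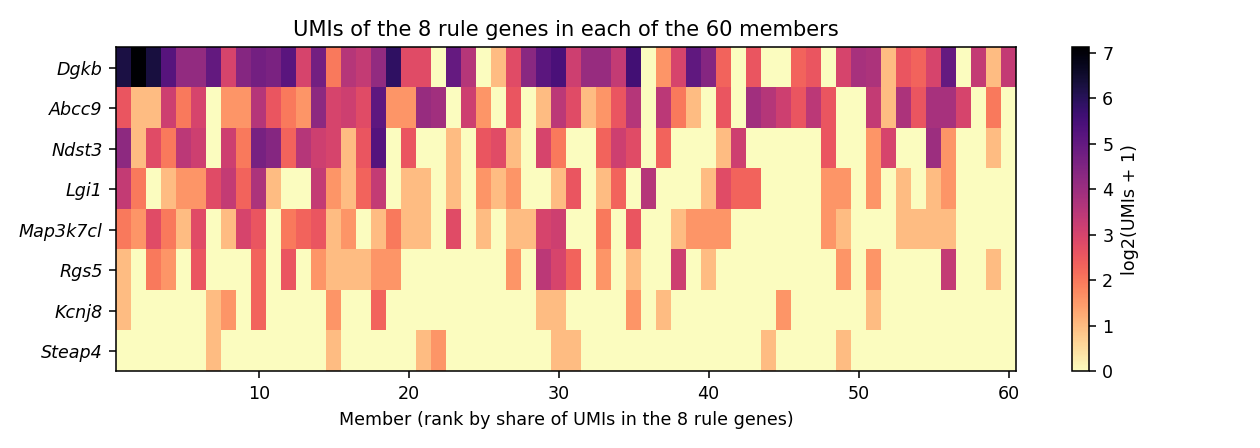
UMIs of the 8 rule genes in each of the 60 members, as a heat map of log2(UMIs + 1), with members in rank order on the x axis. *Dgkb* was found in 52 members and *Abcc9* in 49, whereas *Kcnj8* was found in 12 and *Steap4* in 8.

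The members differed in how many rule genes they held. The median was 4 of the 8, 41 members held 4 or more, 14 held 2 or fewer, 5 held 1, and 2 members held all 8. *Abcc9*, the sulfonylurea receptor subunit of the vascular ATP-sensitive potassium channel, was found in 49 members with a median of 5 UMIs and at most 33. *Kcnj8*, the pore subunit of the same channel, was found in 12 members, and 11 of these 12 also held *Abcc9*. *Rgs5*, a regulator of G protein signalling that is a usual pericyte marker, was found in 24 members with at most 10 UMIs. *Lgi1*, which encodes a secreted protein known from synapses, and *Ndst3*, a heparan sulfate modifying enzyme, were each found in 36 members, and 28 held both. The heat map of the rule genes by rank shows this scatter.

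The rule genes were low elsewhere. *Rgs5* was at 125 counts per 1000000 UMIs (CPM) in the members and 1.02 CPM in the others, *Lgi1* at 206 and 2.06 CPM, *Ndst3* at 424 and 1.99 CPM, and *Dgkb* at 1693 and 13.9 CPM. *Abcc9* was at 547 and 17.4 CPM, with a UMI in 10.5% of the others and 43.6 CPM in the endothelial-ranked nuclei described below. These ratios are what the ranking selected. With the nuclei ranked again on the other 7 genes, so that a gene no longer chose its own carriers, the ratio was 81.4 for *Rgs5* (95% interval 58.0 to 113), 21.8 for *Abcc9* (19.0 to 24.9), 35.4 for *Kcnj8* (21 to 57.4), 84.9 for *Lgi1* (66.6 to 108), 147 for *Ndst3* (121 to 179), 62.9 for *Dgkb* (57.3 to 69.1), 18.8 for *Steap4* (8.21 to 38.2) and 156 for *Map3k7cl* (116 to 212). From 46 to 60 of the members stayed among the first 60 in these rankings, which were chosen after the data had been seen. Each gene thus stayed higher in nuclei ranked without it, although only 2 members held all 8. The 8 genes were chosen together with earlier results of these data known. The study also names *Lgi1*, *Dgkb* and *Ndst3* as markers of its pericyte cluster in this library. These ratios therefore follow in part from that choice and give no separate support.

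Most close relatives of the rule genes were too low to compare. Of the 20 *Rgs* genes, 10 had no UMI in the members, and besides *Rgs5* only *Rgs3* among the tested genes was at least 2-fold higher (76.7 against 28.1 CPM, with 324 CPM in the endothelial-ranked nuclei described below). *Rgs5* and *Rgs3* reached the level for comparison only through the members, and the 1 tested *Rgs* gene at that level in the others was not higher. The pancreatic channel subunits *Kcnj11* and *Abcc8* had 0 and 2 UMIs in the members. *Ndst1* was at 49.6 CPM in the members and 57.9 in the others, and *Steap1*, *Steap2* and *Steap3* together gave 10 UMIs. Of the diacylglycerol kinases, *Dgkh* was also higher (286 against 117 CPM, 2.45-fold), and *Dgkd* was at 157 and 127 CPM. Of the genes that encode receptors of LGI1, *Adam22* was below the level for comparison (22.4 against 68.0 CPM), and *Adam23* was lower in the members, at 68.7 CPM against 183 and at 992 CPM in the progenitor-ranked nuclei described below.

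Pericyte genes that the rule did not read were mostly higher in the members. A gene was compared where the mean of its levels in members and others was at least 50 CPM, which left 4179 genes, and it was called higher at a ratio of at least 2 and lower at a ratio of at most 0.5. Of all compared genes 254 were higher (6.08%) and 212 were lower (5.07%). Of 30 pericyte genes outside the rule 11 could be compared, and 10 were higher and 0 lower. The median log2 ratio of these 11 was 2.58, against -0.11 for all compared genes. *Cspg4*, *Mcam*, *Heyl*, *Ebf2* and *Epas1* reached the level for comparison only through the members and could then only be called higher. Of the 6 pericyte genes that were at 50 CPM or more in the others, 5 were higher, as were 148 of all 3975 such genes. The summed level of all 30 was 5159 CPM in the members and 855 CPM in the others, a ratio of 6.04 (5.82 to 6.25). *Ebf1* alone gave 2657 CPM of the sum in the members. The list summed to 1655 CPM in the endothelial-ranked and 1516 CPM in the progenitor-ranked nuclei described below.

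*Pdgfrb*, the receptor for the recruiting growth factor, had from 0 to 17 UMIs per member with a median of 4, was found in 52 of 60 members, and was at 424 CPM against 70.6 CPM in the others (6-fold, 5.28 to 6.79). *Cspg4*, the NG2 proteoglycan of the pericyte surface, had a median of 2 and at most 10 UMIs, was found in 43 members, and was at 203 against 24.9 CPM (8.16-fold, 6.77 to 9.77). *Mcam*, the adhesion molecule CD146, had a median of 1 and at most 9 UMIs, was found in 32 members, and was at 117 against 8.54 CPM (13.7-fold, 10.6 to 17.4). *Pdgfrb* and *Cspg4* were found in the same member 39 times and *Mcam* and *Cspg4* 25 times. Most nuclei thus held UMIs of more than 1 of these markers, although each marker was missing from some.

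Some genes of the Notch pathway were higher. *Notch3*, the Notch receptor of mural cells, was at 428 against 83.6 CPM (5.12-fold, 4.52 to 5.79), and *Heyl*, a Notch target gene, was at 134 against 18.2 CPM (7.38-fold, 5.85 to 9.20). Of the 34 members with *Heyl*, 33 also held *Notch3*. The Notch ligand *Jag1* was at 432 against 89.8 CPM (4.81-fold), and *Notch1* was at 101 against 17.9 CPM, with 157 CPM in the endothelial-ranked nuclei. *Heyl* and *Notch1* reached the level for comparison only through the members. *Notch2* did not differ by the fold used (187 against 206 CPM).

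Transcription factors of the list were led by the early B-cell factors. *Ebf1* was found in 55 members and was at 2657 against 216 CPM (12.3-fold, 11.7 to 12.9), with 888 CPM in the endothelial-ranked and 477 CPM in the progenitor-ranked nuclei. *Ebf2* was at 209 against 4.60 CPM (45.5-fold, 37.0 to 55.8), but it was found in only 13 members, and 1 of them held 38.9% of its UMIs. *Tbx2* was 2.18-fold and *Epas1* 4.73-fold higher, while *Epas1* was at 392 CPM in the endothelial-ranked nuclei and *Tbx2* at 322 CPM in the progenitor-ranked nuclei, against 321 CPM in the members. *Tbx2* stayed under 2-fold with the top 90 barcodes (1.93) and in the members with 4 or more rule genes (1.74). *Foxc1*, which was below the level needed for comparison, was at 28.8 against 2.24 CPM with 18 UMIs in 15 members.

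Several usual pericyte markers were absent. *Higd1b*, *Vtn*, *Gja4*, *Foxf2*, *Foxs1*, *Gper1*, *Zic1* and *Rgs4* had no UMI in the members, where 3 UMIs would correspond to 4.80 CPM. All 8 were also under 2 CPM in the other barcodes. *Anpep* had 2 UMIs and *Des* 5. *Enpep*, an aminopeptidase of angiotensin breakdown that marks pericytes elsewhere, was the single compared gene of the list that was not higher (49.6 against 66.6 CPM, ratio 0.744, 0.505 to 1.06). Of the defining markers *Pdgfrb*, *Cspg4*, *Mcam* and *Notch3* were thus present in the members, and these 8 genes were not found.

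**Figure D2:**
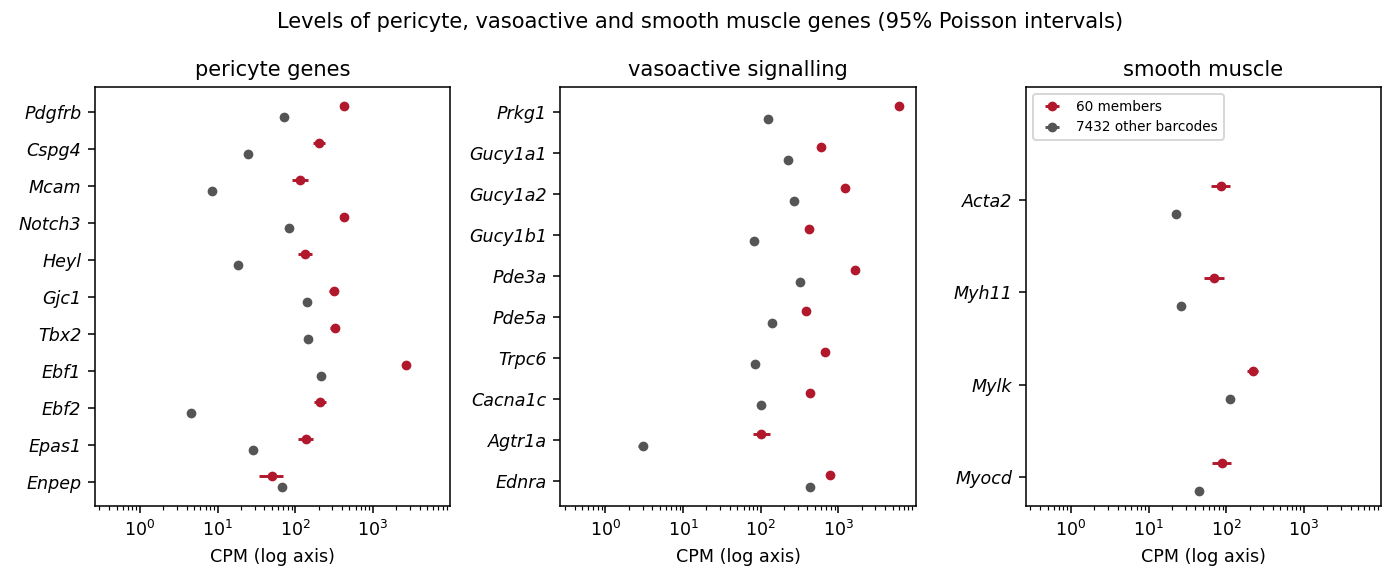
CPM (log axis) of pericyte, vasoactive and smooth muscle genes in the 60 members (red) and the 7432 other barcodes (grey), with exact 95% Poisson intervals. Each gene but *Enpep* lies further right in the members, with *Prkg1* at 6128 against 124 CPM.

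Genes that set vessel tone were mostly higher. Of 34 vasoactive signalling genes 14 could be compared, 10 were higher and 0 lower, and the median log2 ratio was 1.89. Of the 11 that were at the level in the others 8 were higher, and *Agtr1a* and *Npr3* were not among these 11. *Prkg1*, the cyclic GMP-dependent protein kinase that relaxes smooth muscle, had a median of 47.5 and at most 302 UMIs per nucleus, was found in 56 members, and was at 6128 against 124 CPM (49.3-fold, 47.5 to 51.2). After each nucleus was thinned to 2000 UMIs, 90% of the members still held *Prkg1*, against 13.0% of the others and 10.7% of germ-ranked nuclei, a type that served as the gauge of free RNA.

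Several genes of cyclic GMP turnover in the list were higher. The 3 soluble guanylate cyclase subunits *Gucy1a1*, *Gucy1a2* and *Gucy1b1*, which make cyclic GMP in response to nitric oxide, were at 606, 1202 and 422 CPM against 222, 267 and 82.2 CPM. The phosphodiesterases *Pde3a* and *Pde5a* were at 1642 and 384 CPM against 321 and 140 CPM, while *Pde1a* (352 against 225 CPM, 1.56-fold) and *Pde3b* (174 against 97.6 CPM, 1.78-fold) stayed under 2-fold. *Gucy1a1* was as high in the contractile-ranked nuclei, at 618 CPM (ratio 0.981, 0.873 to 1.10). The membrane receptors for natriuretic peptides did not move as a group: *Npr3*, the clearance receptor, was at 112 against 34.9 CPM, and *Npr1*, which makes cyclic GMP, was at 11.2 against 34.9 CPM with 7 UMIs. The subunits of the nitric oxide sensor were thus higher together, while *Npr1* had few counts.

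The list also held channels and receptors. The calcium channel subunit *Cacna1c* was at 436 against 102 CPM (4.28-fold), with 378 CPM in the contractile-ranked nuclei, and the receptor-operated cation channel *Trpc6* was at 676 against 84.5 CPM (8.01-fold), with 277 CPM in the contractile-ranked nuclei. *Agtr1a*, the angiotensin II receptor, was found in 18 members at 102 against 3.03 CPM (33.7-fold, 25.2 to 44.6), with 0 UMIs in the endothelial-ranked nuclei and 6.92 CPM in the contractile-ranked nuclei. The endothelin receptor *Ednra* was at 772 against 428 CPM and stayed under 2-fold. The adenosine receptor *Adora2b*, which was below the level for comparison, was found in 13 members with 13 UMIs (20.8 against 1.35 CPM). Of the receptors for constriction, the adrenergic *Adra1a* was found in 4 members, *Adra1b* had 2 UMIs, and *Avpr1a* and *P2rx1* had 0.

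Several smooth muscle genes were lower than in the contractile-ranked nuclei. Of 18 smooth muscle genes 5 could be compared, and 3 were higher and 0 lower, with a median log2 ratio of 1.12. *Acta2* and *Myocd* reached the level only through the members, and of the other 3 genes 2 were higher. *Acta2*, smooth muscle actin, was at 84.7 against 22.4 CPM in the others but at 242 CPM in the 272 nuclei ranked on contractile genes. *Myh11*, smooth muscle myosin, was at 70.3 CPM in the members and 315 CPM in the contractile-ranked nuclei. *Myocd*, the coactivator of smooth muscle genes, was at 87.9 and 372 CPM. *Cald1*, which binds actin, was at 1826 and 1538 CPM, and *Tpm1*, a tropomyosin, at 544 and 953 CPM. These sets were ranked on such genes, so the difference is a description. *Acta2* was found in 21 of the 60 members.

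Growth factor genes for vessels were higher in part. Of 36 vessel ligands and receptors 16 could be compared, with 9 higher and 2 lower, and of the 12 that were at the level in the others 5 were higher. *Angpt1*, the pericyte ligand of the endothelial receptor TEK, was at 315 against 55.6 CPM (5.67-fold, 4.89 to 6.54), with 19.2 CPM in the endothelial-ranked nuclei. *Angpt2*, the partial antagonist, was below the level for comparison (70.3 against 13.9 CPM). *Vegfc*, a ligand for lymphatic and blood endothelium, was at 460 against 29.8 CPM in 29 members, and *Nrp1* was at 883 against 149 CPM, but both were higher still in the endothelial-ranked nuclei (947 and 1522 CPM). The calcitonin receptor-like receptor *Calcrl*, among the leading genes below, showed the same order, with 420 CPM in members, 47.3 CPM in others and 1543 CPM in endothelial-ranked nuclei.

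The PDGF receptors divided the members from the progenitors. *Pdgfra*, the receptor of interstitial progenitors, was one of the 2 lower genes, at 302 CPM in the others. Between members and the 578 nuclei ranked on progenitor genes it was at 115 and 1012 CPM. *Pdgfrb* differed the other way between these 2 groups, at 424 CPM in the members and 144 CPM in the progenitor-ranked nuclei. The other lower gene was *Pdgfc* (41.6 against 161 CPM). *Pdgfb*, the ligand made by endothelium, had 4 UMIs in the members and was at 66.3 CPM in the endothelial-ranked nuclei.

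Basement membrane genes were higher in part. Of 22 genes 17 could be compared, with 6 higher and 1 lower, and of the 14 that were at the level in the others 3 were higher. The collagen IV chains *Col4a1* and *Col4a2* were at 1033 and 651 CPM against 405 and 218 CPM, and *Lama4*, the laminin chain of vessels, was at 344 against 154 CPM. *Lama1*, a laminin chain of epithelial basement membranes, was at 51.2 against 200 CPM, and *Lama2* was at 723 against 699 CPM. *Itga1*, a collagen-binding integrin, had a median of 15 and at most 72 UMIs per member, was found in 53 members, and was at 1655 against 35.5 CPM (46.7-fold, 43.4 to 50.1). The whole list, *Itga1* included, summed to 6650 CPM in the members and 3356 CPM in the others. It summed to 5234 CPM in the endothelial-ranked, 3535 CPM in the contractile-ranked and 5536 CPM in the progenitor-ranked nuclei.

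With the rule genes left out, the 20 compared genes with the highest ratios that were found in at least 20 members, some of them in the lists above, were *Prkg1*, *Itga1*, *Reln*, *Rcan2*, *Spon1*, *Ano1*, *Zfp804b*, *Vegfc*, *Mcam*, *Morrbid*, *Ebf1*, *Plcl1*, *Sgip1*, *Inpp4b*, *Lmo7*, *Calcrl*, *Cap2*, *Cspg4*, *Trpc6* and *Myom1*, from 49.3-fold down to 7.59-fold. *Reln*, a secreted glycoprotein known from brain layering, was found in 42 members with a median of 7.5 and at most 77 UMIs, at 1092 against 31.3 CPM (34.9-fold, 32.0 to 38.0). *Ano1*, the calcium-activated chloride channel, was at 318 against 19.9 CPM (16.0-fold) and was at most 18 CPM in the endothelial-, contractile- and progenitor-ranked nuclei. *Rcan2*, a calcineurin inhibitor, was 18.7-fold higher and *Spon1*, a matrix protein, 16.4-fold. For *Zfp804b*, 24.5% of the UMIs came from 1 member. Of the 20 genes only *Prkg1*, *Zfp804b*, *Ebf1*, *Plcl1*, *Sgip1*, *Inpp4b* and *Trpc6* were at 50 CPM or more in the others. The rest reached the level for comparison only through the members and could not have been called lower.

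The 10 lowest genes in the members were *Trank1*, *Hsd17b3*, *Erbb4*, *Rtl4*, *Pak3*, *Aldh1a1*, *Plxnc1*, *Fam155a*, *Dtna* and *Ctnna2*. *Hsd17b3*, the enzyme of testosterone synthesis, had 1 UMI in the members against 125 CPM in the others, and *Erbb4*, a neuregulin receptor, had 6 UMIs (9.59 against 687 CPM). Both were also low in the endothelial-, contractile- and progenitor-ranked nuclei, *Hsd17b3* at 1.74, 3.23 and 2.92 CPM and *Erbb4* at 6.97, 14.8 and 15.4 CPM. *Dtna* and *Ctnna2* were higher in the members than in the endothelial-ranked nuclei (4.28-fold and 3.73-fold). *Aldh1a1*, at 19.2 CPM in the members, was higher in each of these sets (83.7, 56.8 and 73.2 CPM). *Fam155a* was at 99.1 against 1020 CPM, and 53.2% of its UMIs in the members came from 1 nucleus. The lowest ratios depended on the number of members. With the top 90 barcodes they went from 0.00996 to 0.140 for *Trank1*, 0.0127 to 0.0942 for *Hsd17b3*, 0.0140 to 0.113 for *Erbb4* and 0.0478 to 0.203 for *Rtl4*. Under the alternatives 0 values of the 10 genes were above 0.5.

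The members were also set against endothelial-, contractile- and progenitor-ranked nuclei. The endothelial-ranked set held 60 nuclei, the contractile-ranked set 272 and the progenitor-ranked set 578, each chosen by the share of UMIs in its own marker list. Of the first 300 nuclei by contractile share, 6 were members and 22 were also in another set, and all of these were left out. At least 2-fold higher in the members were 412 genes against the endothelial set (10.1% of those compared), 282 against the contractile set (7.02%) and 305 against the progenitor set (7.67%). Of the 254 genes higher over all others, 142 (55.9%) were also higher against the endothelial set, 174 (68.5%) against the contractile set and 181 (71.3%) against the progenitor set, and 84 were higher against each of the 3. Of the pericyte genes outside the rule, 8 of 10 were higher against the endothelial set, 9 of 11 against the contractile set and 8 of 11 against the progenitor set, and most of the genes counted as higher reached the level for comparison only through the members. Of the genes that were at the level in the set itself, 2 of 4 were higher against the endothelial, 3 of 5 against the contractile and 3 of 6 against the progenitor set, where 182 of 3733, 139 of 3730 and 147 of 3655 of all genes were. Against the contractile set, which had been ranked on contractile genes, 0 of 6 smooth muscle genes were higher and 4 were lower, while 233 of 4015 genes (5.80%) were lower. Against the endothelial set *Epas1* was lower in the members (136 against 392 CPM, ratio 0.346, 0.267 to 0.446), and *Mcam* stayed under 2-fold (117 against 71.5 CPM, 1.63-fold, 1.10 to 2.46). Of the pericyte genes outside the rule, 1 of 11 was also lower against the progenitor set, and 0 of 11 against the contractile set.

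**Figure D3:**
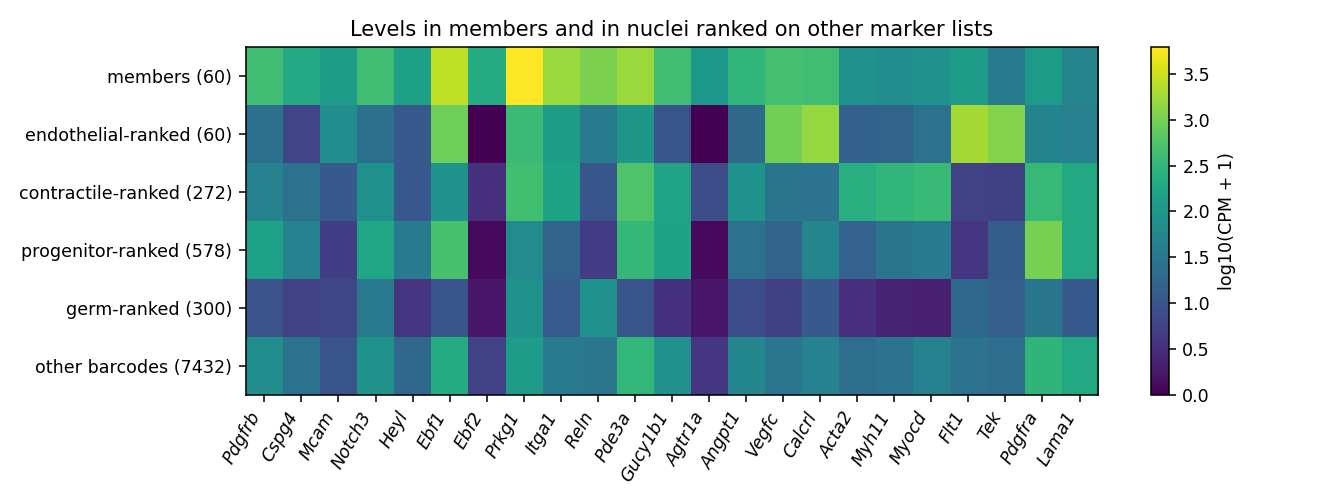
Level of 23 genes as log10(CPM + 1) in the members, in 4 sets of nuclei ranked on other marker lists and in the other barcodes. The members had the highest level of *Prkg1*, *Itga1* and *Reln*, the endothelial-ranked nuclei of *Flt1*, *Tek*, *Calcrl* and *Vegfc*, and the contractile-ranked nuclei of *Acta2* and *Myh11*.

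RNA of other cell types was present in some members. The summed level of 10 endothelial markers was 531 CPM in the members, 178 CPM in the others and 8192 CPM in the endothelial-ranked nuclei, and none of the 10 was at 0. *Emcn* was found in 26 members at 155 CPM. The 8 contractile markers were at 420 CPM against 182 CPM. Germ cell, Leydig, Sertoli, progenitor and immune lists were below the level of the others, at ratios of 0.494, 0.528, 0.412, 0.457 and 0.311. The erythroid, surface epithelium, supporting-like, Schwann and mesonephric mesenchyme lists were at ratios of 0.464, 0.372, 0.277, 0.873 and 0.895.

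Part of these UMIs came from a few nuclei. With a limit of 20 UMIs of any 1 of the endothelial, germ, Leydig, Sertoli, immune or mesonephric mesenchyme lists, which was set after the values were seen, 10 members stood out: 3 by endothelial, 4 by germ, 2 by Leydig and 1 by mesonephric mesenchyme RNA. Their median was 21077.5 UMIs against 6811.5 in the other 50 members, and they held 35.2% of the members' UMIs, 35.0% of their fragments, 71.1% of their endothelial UMIs and 132 of their 139 germ UMIs, but 47.7% of their Leydig, 25.4% of their erythroid and 18.5% of their surface epithelium UMIs. Without them the endothelial list was at a ratio of 1.33 (1.08 to 1.63) and the germ list at 0.0384. *Flt1*, the VEGF receptor of endothelium, went from 4.70-fold higher to a ratio of 0.859. Without the 10, the pericyte genes outside the rule stood at 10 of 11 higher, vasoactive genes at 12 of 14 and smooth muscle genes at 5 of 5, where 312 of 4121 genes (7.57%) were higher. Of those at the level in the others the counts were 5 of 6, 10 of 11 and 3 of 3, against 192 of 3891 genes. Removal of the 449 kept barcodes with the highest doublet scores took out 2 of the 60 members, both among these 10.

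Cell cycle genes were near the level of the whole testis. The 30 genes summed to 1901 CPM in the members and 1979 CPM in the others, a ratio of 0.961 (0.907 to 1.02), with 0 of 12 compared genes higher and 1, *Cenpf*, lower (99.1 against 220 CPM). After thinning, 36.7% of the members held a UMI of *Mki67* or *Top2a* (24.6 to 50.1%), against 36.0% of the others. Before thinning the shares were 63.3% and 63.6%. The germ-ranked nuclei were at 25.3% after thinning.

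The ATAC library offered a reading that had not ranked the members, although a minimum of cuts at peaks was part of the filter. Each nucleus was placed by its open peaks, and its 20 nearest nuclei were listed. On average 34.25% of a member's neighbours were members, compared with 0.375% of the neighbours of other barcodes and a share of 0.801% among all kept barcodes. The median member had 7 member neighbours and the highest had 16. The nuclei ranked on RNA thus lay close to each other in chromatin.

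The agreement was not complete. Of the 60 members 35 had 5 or more member neighbours and 14 had none. Of the members with 4 or more rule genes 26 of 41 had at least 5, of those with 3 it was 4 of 5, and of those with 2 or fewer 5 of 14. Of the 10 members with RNA of another type 3 had at least 5. Members with no member neighbour had a median of 6 pericyte genes outside the rule, against 9 in those with at least 5, and their median fragment number was 4981 against 5561.

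**Figure D4:**
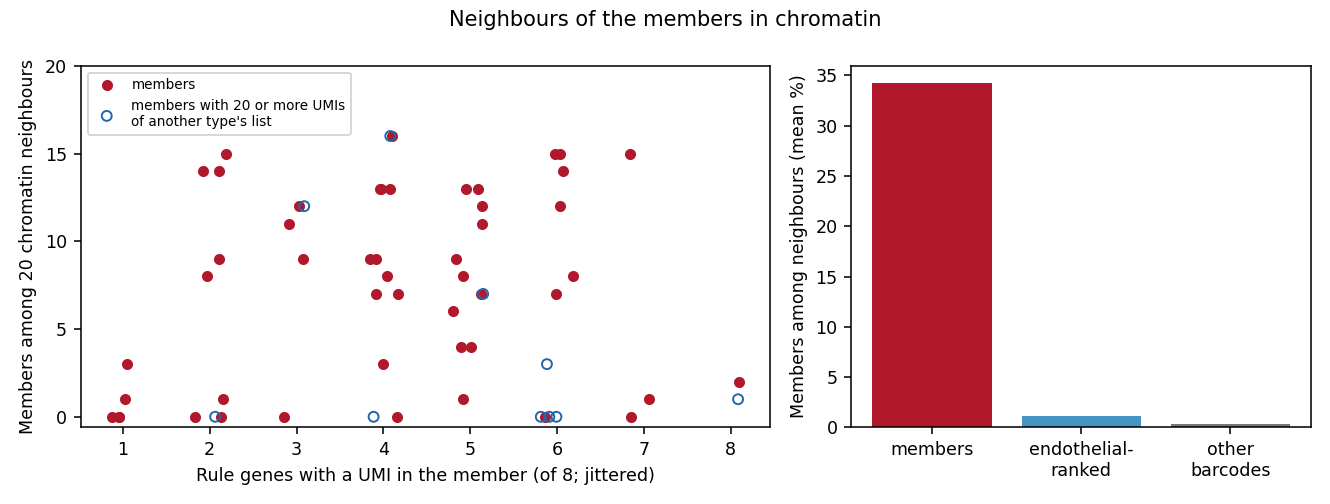
Left, number of members among the 20 chromatin neighbours of each member (y axis) by the number of rule genes with a UMI (x axis), with the 10 members holding RNA of another type as open circles. Right, mean share of neighbours that were members, 34.25% for members, 1.17% for endothelial-ranked nuclei and 0.375% for other barcodes.

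Endothelial-ranked nuclei were also frequent beside the members. They made up 8.75% of the members' neighbours, although they were 0.801% of kept barcodes, and 8.60% for the 50 members without RNA of another type. The share in the opposite direction was 1.17%. Contractile-ranked nuclei were 1% of the members' neighbours and 3.63% of kept barcodes, and progenitor-ranked nuclei 2.17% and 7.71%. Of the 3 sets, the endothelial one was thus over its share of kept barcodes beside the members and both others were under theirs.

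Outside the members, 24 barcodes (0.323%) had 5 or more member neighbours. Of these 12 held a UMI of a rule gene, 5 ranked from 61 to 120, and 1 was in the endothelial-ranked set. Their RNA was also higher than that of the remaining barcodes for genes the chromatin placement had not read, among them *Prkg1* (7.43-fold, 6.51 to 8.44), *Itga1* (11.6-fold), *Reln* (10.1-fold), *Ebf1* (6.86-fold) and *Mcam* (10.4-fold). *Pdgfrb* was 2.71-fold and *Notch3* 2.15-fold higher, while *Cspg4* (1.5-fold, 0.719 to 2.77) and *Acta2* (1.17-fold, 0.469 to 2.41) had intervals that include 1. *Flt1* was 15.8-fold higher in them, with UMIs in 6 of 24. *Ebf2*, *Kcnj8* and *Steap4* had 0 UMIs. Some barcodes with many member neighbours thus lay outside the first 60 by rule gene share.

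At single genes the chromatin differences were small. Fragments at the peaks of a gene body and its 10 kb upstream were compared, as fragments per 1000000 fragments at peaks, for 9062 genes, of which 206 (2.27%) were at least 2-fold higher in the members. Some of these loci reached the level for comparison only through the members, and they were not counted apart. Of the genes higher in RNA 200 could be compared, 165 of them (82.5%) had a ratio above 1, against 59.5% of all compared loci, and 12 (6%) were at least 2-fold higher. Of the genes lower in RNA, 91 of 142 had a ratio below 1. The RNA differences were thus accompanied by smaller differences in chromatin, mostly of the same direction. Locus ratios pool the members' fragments, of which 1 member held 15.5% and the 10 members with RNA of another type held 35.0%. Locus ratios were not computed without these nuclei.

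The *Mcam* locus had 19 fragments in the members and a ratio of 3.05 (1.83 to 4.80). *Gucy1b1* was at 2.57 (1.62 to 3.89), *Plcl1* at 2.53 (1.74 to 3.55), *Pdgfrb* at 2.20, *Pde3a* at 2.18, *Ano1* at 2.01 and *Prkg1* at 1.95 (1.33 to 2.76). Among the rule genes *Abcc9* was at 2.35 with 12 fragments (1.20 to 4.13), also compared only through the members, and the other 7 had 5 fragments or fewer, too few to tell. *Itga1* and *Reln*, which were among the highest in RNA, had locus ratios of 0.600 (0.241 to 1.24) and 1.58 (0.858 to 2.66). A high RNA ratio thus did not go with a high locus ratio at every gene.

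At single peaks, 134 of 3255 compared peaks (4.12%) were at least 2-fold higher in the members and 40 (1.23%) were lower. Of the 2566 that were at the level in the others, 17 (0.663%) were higher. The 10 peaks with the highest ratio among those found in at least 10 members lay nearest to *Tinagl1*, *Nrarp*, *Ltbr*, *Adgra2*, *Arhgap31*, *Tgds*, *Ypel3*, *Egr2*, *Wnt10a* and *Prmt2*. All 10 reached the level for comparison only through the members. The peak in an intron of *Tinagl1*, which encodes a matrix protein, had 14 fragments in 12 members (4.45-fold, 2.41 to 7.56). The peak 12492 bp from the start of *Nrarp*, a Notch-responsive gene, had 11 fragments in 10 members (4.06-fold, 2.01 to 7.38). Both peaks that follow were below the level needed for comparison and were picked by their fragments in the members, so their ratios are descriptions of that choice. A peak 6497 bp upstream of *Notch3* had 7 fragments in 7 members and 39 fragments in all 7432 others (19.9-fold, 7.51 to 45.0). A peak 4245 bp upstream of *Mcam* had 10 fragments (5.23-fold, 2.47 to 9.80).

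The central 200 bases of the *Notch3*, *Mcam*, *Tinagl1* and *Nrarp* peaks are shown as the regions with high ratios at pericyte genes, among those with at least 7 fragments in the members, and among the named peaks, whose windows touch no annotated exon. They are given on the + strand of GRCm38 (mm10), with capitals for matches to any of 13 short motifs searched on both strands. The *Notch3* and *Nrarp* windows are intergenic, at chr17:32173250-32173449 and chr2:25168166-25168365. The *Mcam* window, chr9:44130125-44130324, is intergenic in GENCODE and intronic to an antisense noncoding gene in RefSeq. The *Tinagl1* window, chr4:130168495-130168694, is intronic.
Notch3: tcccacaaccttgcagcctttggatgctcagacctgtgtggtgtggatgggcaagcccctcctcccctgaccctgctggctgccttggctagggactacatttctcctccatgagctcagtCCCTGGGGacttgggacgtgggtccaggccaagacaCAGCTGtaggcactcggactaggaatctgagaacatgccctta
Mcam: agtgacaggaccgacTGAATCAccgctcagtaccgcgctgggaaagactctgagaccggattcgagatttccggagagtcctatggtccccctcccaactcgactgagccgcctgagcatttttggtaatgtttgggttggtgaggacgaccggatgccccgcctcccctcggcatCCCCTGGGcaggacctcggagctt
Tinagl1: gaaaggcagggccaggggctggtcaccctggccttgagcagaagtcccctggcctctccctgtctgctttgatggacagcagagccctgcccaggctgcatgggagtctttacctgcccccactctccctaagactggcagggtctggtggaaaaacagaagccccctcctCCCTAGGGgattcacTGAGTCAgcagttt
Nrarp: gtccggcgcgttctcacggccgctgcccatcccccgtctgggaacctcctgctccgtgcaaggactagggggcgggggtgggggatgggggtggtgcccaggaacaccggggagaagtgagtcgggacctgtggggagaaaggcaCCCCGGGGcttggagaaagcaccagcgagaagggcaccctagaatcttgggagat

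The 4 windows hold the EBF motif CCCNNGGG, and the *Notch3* window also holds the E-box CAGCTG. The *Mcam* and *Tinagl1* windows also hold the AP-1 motif TGANTCA. Over the peaks at standard chromosomes, CCCNNGGG was in 26 of 134 higher peaks (19.4%, 13.1 to 27.1%) and in 15.2% of 3252 compared peaks. CAGCTG was in 8.96% and 8.95%, and TGANTCA in 2.99% and 1.66%. The other 10 motifs were in at most 8.21% of the higher peaks. With the limit lowered to 20 fragments per 1000000, which was chosen for the motifs after the data had been seen, 1688 peaks were higher and CCCNNGGG was in 15.8% of them against 14.9% of 12403 compared peaks. At that limit the TEAD motif GGAATG was in 13.5% against 7.998%, the nuclear receptor motif AGGTCA in 12.2% against 7.23%, TGANTCA in 6.28% against 2.84% and the GATA-factor motif AGATAA in 5.75% against 2.81%. CAGCTG was in 19.3% against 14.1%, and the ETS motif CCGGAAGT was in fewer of the higher peaks (1.95% against 5.57%). Without the 10 members holding RNA of another type, CCCNNGGG was in 13.8% of 2667 higher peaks and in 14.6% of those compared, so its direction turned. The GC content of the windows was 58.8% in the higher and 65.3% in the compared peaks. Peaks that reached the limit of 20 fragments per 1000000 only through the members could not be called lower, and they were not counted apart. The motif shares at that limit can follow in part from this entry, which was not tested. A match describes letters only.

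The members were not uniform in RNA. Within them, *Ebf2* marked 13 nuclei, with up to 51 UMIs, and was at 0 in the other 47. This split was chosen after the values were seen, as were *Tafa2*, *Nkain3*, *Bmpr1b* and *Ebf3*, and it carries no test. *Reln* was found in 4 of 13 and 38 of 47, *Vegfc* in 2 and 27, and *Tafa2*, which encodes a secreted chemokine-like protein, in 3 and 36. *Ndst3*, whose UMIs had counted toward the ranking of the members, was found in 13 of 13 and 23 of 47.

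As levels, the members with *Ebf2* had 231 CPM of *Agtr1a* against 56.4 CPM in those without (4.10-fold, 2.43 to 7.04), 572 against 223 CPM of *Angpt1* (2.56-fold) and 536 against 43.4 CPM of the BMP receptor gene *Bmpr1b* (12.4-fold). In the other direction, *Tafa2* was at 97.4 against 1338 CPM (ratio 0.0728, 0.0414 to 0.119), *Nkain3* at 42.6 against 581 CPM, *Vegfc* at 73.1 against 598 CPM and *Reln* at 341 against 1359 CPM. Of the pericyte genes, *Pdgfrb* was at 396 and 434 CPM and *Cspg4* at 213 and 199 CPM, while the rule gene *Rgs5* was at 116 and 128 CPM. *Mcam* was lower with *Ebf2* (67.0 against 134 CPM, ratio 0.498, 0.237 to 0.954), as was *Notch3* (323 against 466 CPM, 0.692, 0.502 to 0.939), which did not hold without the 10 members with RNA of another type (ratios of 1.10, 0.507 to 2.19, and 0.989, 0.693 to 1.38). The rule genes *Ndst3* (877 against 262 CPM) and *Kcnj8* (97.4 against 13.0 CPM) are given as a description only, since a nucleus could become a member through them. Of the smooth muscle genes, *Myh11* was at 12.2 against 91.1 CPM (ratio 0.134, 0.0157 to 0.514), from 2 and 42 UMIs. *Acta2* was at 36.5 against 102 CPM (0.358, 0.125 to 0.840). Without the 10 members with RNA of another type these ratios were 0.141 (0.00344 to 0.853) and 0.506 (0.130 to 1.44).

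**Figure D5:**
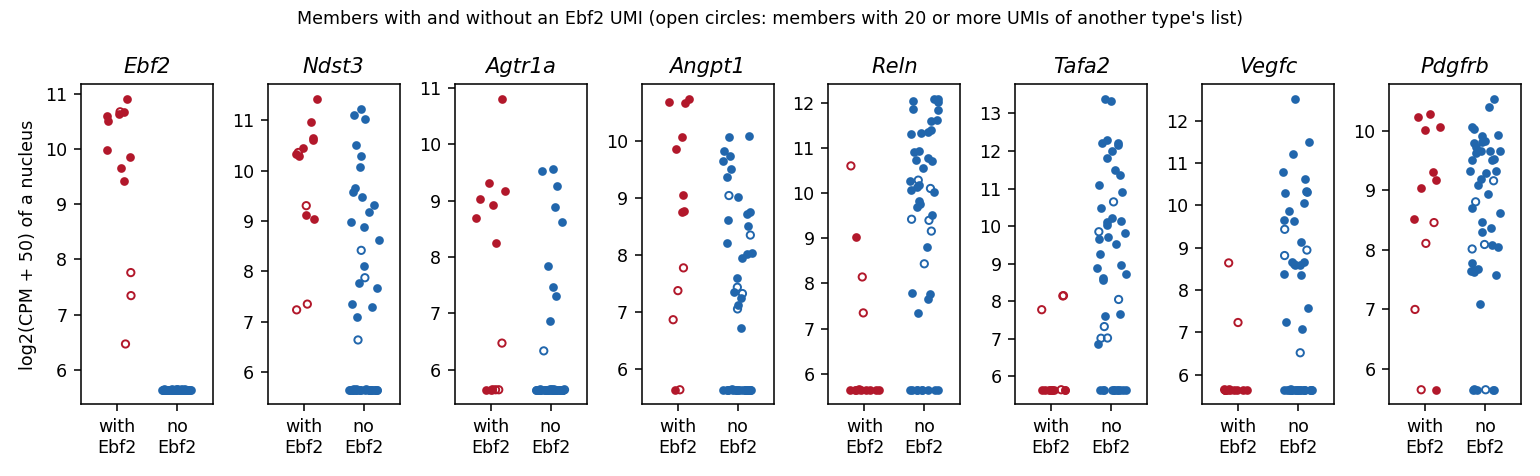
Level of 8 genes per nucleus, as log2(CPM + 50), in the 13 members with an *Ebf2* UMI and the 47 without, with the 10 members holding RNA of another type as open circles. *Tafa2*, *Reln* and *Vegfc* lie at the floor in most members with *Ebf2*, and *Pdgfrb* spans the same range in both.

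For some genes the split was sharper without the 10 members that held RNA of another type, while *Mcam*, *Notch3* and *Acta2*, as given above, then had intervals that include 1. In the remaining 9 members with *Ebf2*, *Tafa2*, *Vegfc* and *Nkain3* had 0 UMIs, against 522, 196 and 220 UMIs in 41 members without, and the exact intervals allow ratios of up to 0.0269, 0.0722 and 0.0642. *Reln* was found in 1 of 9 and 32 of 41. *Ebf3* was at 355 against 3.12 CPM. *Mki67* was 2.53-fold higher with *Ebf2* (521 against 206 CPM), from 44 UMIs in 7 nuclei.

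Members with *Ebf2* had fewer member neighbours, with a mean share of 25.8% and a median of 2 of 20, against 36.6% and 8 in those without. However, 4 of the 13 held RNA of another type, and the 10 members of that kind had a mean share of 19.5%, against 37.2% in the other 50. With these 10 left out, the 9 members with *Ebf2* had 56 neighbours among the remaining members, and the 41 without had 294. Whether the difference rested on the members with RNA of another type was not tested. Members with *Ebf2* made up 16.4% of the member neighbours of members with *Ebf2* and 17.7% of those of members without, against a share of 21.7% among the members. At the *Ebf2* locus the members with *Ebf2* had 4 fragments and those without had 10 (ratio 1.30, 0.297 to 4.49). At this depth a difference at single loci was not detectable. *Ebf2* was not restricted to the members, since 91 other kept barcodes held it and 29 of these had 4 or more UMIs.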

How the data were processed

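Nuclei from whole E14.5 testes were profiled with the 10x Genomics multiome assay. Per the submitters' processing notes, the reads were processed with Cell Ranger ARC 2.0.1 against mm10. The deposited counts, made by the authors with that tool, are UMI counts per gene and transposase cut counts per peak for each barcode, together with a list of ATAC fragments. They are not normalized, and peaks were called over all nuclei, so regions open in a rare type can be missed. The authors' cell labels were not used here.

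UMIs were summed over members and over other barcodes and divided by each group's total (CPM). Ratios have exact conditional binomial intervals. Peak cuts were divided by 2 and rounded up to fragments, since 87.1% of nonzero values were even. Genes and peaks were compared at a mean of both groups of at least 50 CPM or 50 fragments per 1000000 at peaks. With 1 library per assay no test between conditions was possible. Chromatin neighbours used 30 TF-IDF components with the depth component left out. Annotation was GENCODE and RefSeq on GRCm38.

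Besides the listed genes, genes were named by rule, with the rule genes left out and listed genes allowed: the 20 highest ratios among genes in at least 20 members and the 10 lowest among genes of at least 100 CPM in others, without unnamed genes. Peaks were named by the 10 highest ratios among those in at least 10 members. Other genes were named after their values were seen. The members and lists were chosen with earlier results of these data known. The sequence of 1 further peak is not reported here. No doublets were removed from the main set. Alternatives covered the number of members, barcode filters, doublets, weighting, low-count filters, folds and neighbours. Tools were Python 3.11.15, numpy 2.4.6, scipy 1.17.1, pandas 2.3.3, scikit-learn 1.9.0 and scanpy 1.11.5. The ratios were tested on simulated counts, drawn at the members' depth from the pooled means of the other barcodes. That simulation held no variation between nuclei, so it could not check the intervals against such variation.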

Additional observations from a re-analysis of the deposited data

Results flagged for a closer look

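Because peaks were called over all nuclei, the fragments were also counted in windows of 500 bases, which had no part in the comparisons above. Of 5824 windows with at least 8 fragment ends from at least 5 members, 89 touched no called peak. Of these, 24 had at least 5 times as many ends per 1000000 in the members as in the other barcodes, and 119 windows in called peaks did so. Windows entered by their ends in the members, so these counts and ratios follow in part from that choice. Both ends of each fragment were counted, so the ends in a window are not independent. The intervals of windows treat them as independent and can be too narrow. The highest was intergenic (9 ends in 5 members, 62.4-fold, 23.8 to 155). A window in an intron of *Unc5b*, a netrin receptor gene whose RNA was 5.14-fold higher in the members, had 9 ends (15.1-fold, 6.56 to 30.6), and a window in an intron of *Rasa3*, 3.45-fold higher in RNA, had 9 (10.3-fold, 4.54 to 20.4). These genes were chosen after their values were seen. Of the 23 windows whose nearest gene start had an RNA ratio, 6 lay nearest a gene at least 2-fold higher in the members and 13 nearest a gene with a ratio below 1. Of all genes with no filter on level, coding or not, 2194 of 27122 were at least 2-fold higher. The share of all genes with a ratio below 1 was not counted. One member held 15.5% of the members' fragments, and its part in these windows was not tested.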

How the results depend on the processing

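No paired analysis was possible because there was 1 library of each kind and no groups to pair. Of 74 alternative values of the main results, 44 stayed within the limits used and 30 moved, and of 476 alternative values of single genes 342 stayed, 133 moved and 1 reversed. The reversed value was *Flt1*, at a ratio of 0.859 without the 10 members holding RNA of another type. Also under 2-fold were *Gjc1* (1.97) and *Myh11* (1.96) with the top 90, and *Myh11* (1.80) by the mean of CPM per nucleus. The peaks higher and lower in the members numbered 393 and 74 with the top 40 barcodes, 53 and 21 with the top 90, 1689 and 777 at 20 fragments per 1000000, 20591 and 57640 with no filter and 7 and 3 at 3-fold. The genes higher and lower numbered 431 and 471 at 20 CPM, 2194 and 13508 with no filter and 131 and 75 at 3-fold. The member share of neighbours was 27.4% with the top 40, 27.2% with the top 90, 28.8% under the study's own barcode thresholds, 31.4% ranked without *Rgs5*, 38.5% over 10 neighbours and 25.2% over 50. The cell cycle ratio was 0.885 with the top 90. Chosen after seeing the data, leaving out the 10 members gave 339 lower genes, 341 higher and 68 lower peaks and a cell cycle ratio of 1.09, keeping the members with 4 or more rule genes gave 240 higher peaks and a neighbour share of 28.5%, and leaving out the 14 members with no member neighbour gave a cell cycle ratio of 1.06. The number of pericyte genes called higher was 8 to 10 under the 9 alternatives that changed the members, the barcodes or the weighting, and it was not counted under the other gene filters or at 3-fold. The counts of peaks rest on few fragments per peak. Causes were not tested.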
